A study of Gallus gallus with 6 samples.

Results

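The respiratory chain genes described here are 69 of the 14481 protein-coding genes in a liver expression table: the 13 genes on the mitochondrial chromosome and the 56 nuclear genes whose symbols begin with the names of respiratory chain subunits (NDUF, SDH, UQCR, COX4 to COX8, CYC1, CYCS or ATP5). Livers of 6 chickens were profiled by RNA sequencing of total RNA. They came from 3 birds named ALV-J-resistant and 3 named ALV-J-susceptible, where ALV-J is the J subgroup of the avian leukosis viruses, which are chicken retroviruses. No age, sex, breed, diet or infection status is given in the labels for either group. Each library is named as a separate bird, and the sources used here do not say how RNA was selected before sequencing.

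The respiratory chain passes electrons from NADH (complex I) and succinate (complex II) through complex III and cytochrome c to oxygen at complex IV, and ATP synthase (complex V) uses the proton gradient that this builds. Complexes I, III, IV and V are mosaics: their catalytic or proton-conducting cores include proteins made from mitochondrial DNA, and their other subunits are imported from the cytosol. Complex II is wholly nuclear. Mitochondrial mRNAs are cut from long transcripts of the circular genome, so their levels are not independent of each other, whereas each nuclear gene has its own promoter. Liver carries many mitochondria and uses them for fatty acid oxidation, urate synthesis and glucose production.

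Of the 13 mitochondrial genes, 12 could be placed in a complex: ND1 to ND6 and ND4L in complex I, cytb in complex III, COX1 and COX3 in complex IV, and ATP6 and ATP8 in complex V. None of the 13 is named COX2. The gene named Cu, from 8331 to 9014 between COX1 and ATP8, carries no annotation in the table and was put in no complex. The mitochondrial values of complex IV are therefore those of COX1 and COX3 and leave out Cu. The nuclear genes comprised 48 subunits and 8 others, which were assembly factors of complexes I and II, the supercomplex factor COX7A2L and the coupling factor ATP5S. NDUFA4 was counted with complex IV, where its protein is known to sit in mammals. No symbol beginning with SDHB, SDHC, CYC1, CYCS or COX8 was among the 56, and neither was COX5B or ATP5B. Cytochrome c and these subunits were therefore not analysed here, and the nuclear sums cover only the subunits present.

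Levels are the FPKM that the authors deposited, that is, fragments divided by transcript length and by library size. They are per length, but the length used for each gene was not examined, so levels of short and long genes can be compared only roughly. The libraries corresponded to an estimated 3831119 to 6622998 fragments. Between 6671 and 9424 genes lay above 0 in a bird, with the most in resistant 1 and 2. Chromosome W, which in birds only females carry, is represented by 9 genes. Fragments on W were present in resistant 1 and 2 (5 and 4 genes above 0) and susceptible 1 and 2 (3 and 2 genes), and absent from resistant 3 and susceptible 3. VTG2, a yolk precursor made in the liver of laying hens, was at 9.65 FPKM in resistant 3 and 20.6 in susceptible 3. With W fragments, VTG2 was at 12622 and 18820 in resistant 1 and 2, and 3345 and 11688 in susceptible 1 and 2. Each group therefore holds 2 birds with W fragments and 1 without, and results are given over all birds and within these kinds of bird. Of the markers of liver cells, the 12 hepatocyte genes summed to 17957 to 66700.4 FPKM in resistant and 38725 to 63999.7 in susceptible birds. Macrophage genes summed to 425 to 587 in resistant and 184 to 613 in susceptible birds. Endothelial genes summed to 112 to 299 in resistant and 91.8 to 172 in susceptible birds. At most 1 striated muscle gene was above 0 in any bird. Red cell genes summed to 26.7 at most, but only 7 of 16 symbols were present. HBG1, HBE and EPB42 were at 0 in all birds, so this sum does not show how much blood was in the samples. ALB, serum albumin and one of the hepatocyte genes, was listed at 0 in resistant 2 and susceptible 3, so a 0 is reported only as listed at 0. These birds had the lowest hepatocyte sums, 17957 and 38725 FPKM, which therefore lack ALB. Resistant 2 was also the lowest bird for 12 of 13 mitochondrial genes, and susceptible 3 the highest for all 13. The part of hepatocyte content in this was not tested.

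Mitochondrially encoded mRNAs had a log2 fold change below 0, that is, lower in resistant livers, for all 13 genes, where 47.2% of all genes tested had one, whereas nuclear subunits of the same complexes lay on both sides of no difference. None of the 69 genes passed the test. Over the 9626 genes with a mean of at least 0.5 FPKM, limma on log2(FPKM + 1) with Benjamini-Hochberg adjustment called 0% of genes at an adjusted p under 0.05, and the adjusted p of the 68 tested members was 0.984 or more. At an unadjusted p under 0.05, where 1.48% of all genes were lower and 2.4% higher in resistant birds, limma counted 6 of 13 mitochondrial genes lower and 0 higher. For the 55 tested nuclear members it counted 1 lower and 2 higher. The median log2 fold change, resistant minus susceptible, was -1.16 over the mitochondrial genes, 0.07 over the nuclear members and 0.05 over all genes tested. The count of 6 became 0 without resistant 1, resistant 2 or susceptible 3, 1 without susceptible 1 and 10 without resistant 3. In bulk liver, fewer cells of a type and less RNA per cell cannot be told apart.

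COX1, the catalytic subunit of complex IV that reduces oxygen, was the most abundant mitochondrial mRNA in each bird. Its level was 6369, 6081 and 11046 FPKM in resistant 1 to 3, against 9100.3, 9982 and 14933 in the susceptible birds. The groups overlapped, because resistant 3 lay above susceptible 1 and 2, and COX1 differed by -0.55 on the log2 scale (SE 0.53, with a 95% interval of -1.75 to 0.64). COX1 lies on the mitochondrial chromosome from 6645 to 8258 in the galGal4 build. COX3, a structural core subunit of the same complex, had 3328, 3097 and 6107 FPKM in resistant birds and 6174, 7058 and 9656 in susceptible birds. Here the groups did not overlap, though resistant 3 lay just below susceptible 1. The log2 fold change of COX3 was -0.91 (SE 0.50). Cu had 3579, 2529 and 6208 FPKM in resistant birds and 7426, 7137 and 10349.7 in susceptible birds, again without overlap. COX3 and Cu were the 2 mitochondrial genes with all resistant birds below all susceptible birds, an arrangement that 3.98% of all genes tested showed.

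**Figure D1:**
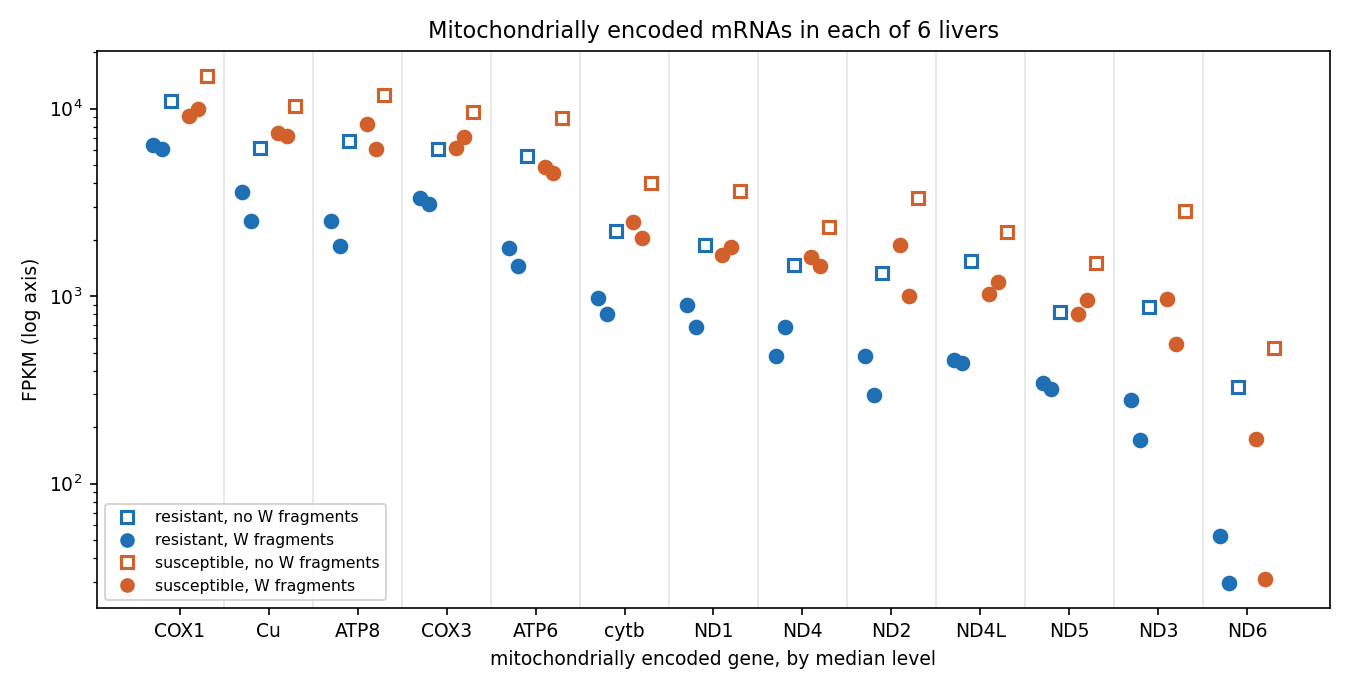
FPKM (log axis) of the 13 mitochondrially encoded genes, ordered by median level, in each resistant (blue) and susceptible (orange) bird. Open squares are the birds without W fragments and filled circles those with them. Susceptible 3 (open orange square) is the highest of the 6 birds for each gene, and resistant 1 and 2 (filled blue) are the lowest pair for 12 of 13.

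Complex I holds the mitochondrial genes with the largest differences. ND2, a proton-pumping membrane subunit, had 482, 298 and 1335 FPKM in resistant birds and 1877, 1003 and 3349.6 in susceptible birds. ND3, a small subunit at the junction of the membrane and peripheral arms, had 279, 171 and 872 in resistant birds and 969, 557 and 2839.6 in susceptible birds. In both genes resistant 3 fell between susceptible 1 and 2. The log2 fold changes were -1.68 for ND2 (SE 0.63) and -1.73 for ND3 (SE 0.71), each with a limma adjusted p of 0.984. ND5, another proton-pumping subunit, had 346, 320.0 and 819 FPKM in resistant birds and 808, 954 and 1504 in susceptible birds. Resistant 3 lay just above susceptible 1, and the log2 fold change of -1.22 had an SE of 0.47. ND4, also a proton pump, had 482, 687 and 1466 in resistant birds and 1616, 1441 and 2339 in susceptible birds, and resistant 3 narrowly exceeded susceptible 2. ND2, ND3, ND4 and ND5 are 4 of the 6 mitochondrial genes with an unadjusted p under 0.05, with cytb and ATP8. ND1, which closes the quinone site, and ND4L had log2 fold changes of -1.09 and -1.04.

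ND6 is the one gene of the set given on the minus strand, from 16184 to 16705, and it stood apart in its values too. It was the lowest of the 13 in each bird, at 52.8, 29.7 and 327 FPKM in resistant birds and 172, 30.9 and 527 in susceptible birds. Susceptible 2 was as low as resistant 2, and both birds without W fragments lay above the other 4. The highest bird was 17.8-fold above the lowest, against 2.46-fold for COX1 and a median of 5.04-fold over the 13 genes. ND6 had a log2 fold change of -0.81 (SE 1.06), which was 0.13 without susceptible 3. The sources used here do not say whether the libraries kept strand, so antisense fragments cannot be told apart from those of ND6.

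Cytochrome b, the haem-bearing core of complex III, had 974, 801 and 2236 FPKM in resistant birds and 2478, 2048 and 4039.7 in susceptible birds. The log2 fold change of cytb was -1.18 (SE 0.51). ATP6, the proton channel subunit of ATP synthase, had 1815, 1443 and 5580.5 in resistant birds and 4869, 4535 and 8912 in susceptible birds. ATP8, a small subunit of the same membrane part, had 2519.6, 1855 and 6689 in resistant birds and 8321, 6124 and 11847 in susceptible birds. In all 3 genes resistant 1 and 2 were the lowest birds and resistant 3 lay among the susceptible ones. The log2 fold changes were -1.25 for ATP6 (SE 0.60) and -1.42 for ATP8 (SE 0.59). The table gives ATP8, ATP6 and COX3 the same interval, from 9085 to 10706, and ND4L and ND4 that from 11196 to 12863, so how fragments were divided within each set cannot be seen. ATP8 rested on 250 to 1761 scaled counts per bird and COX1 on 49231 to 121134, so ATP8 reached its FPKM on far fewer fragments. In resistant 1, ATP8 had 2519.6 FPKM on 416 scaled counts, and ATP6 had 1815 FPKM on 5675. The rank of ATP8 and its part of the complex V sum therefore rest on the length used for it, which was not examined.

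The order of levels among the mitochondrial genes was much the same in each bird. COX1 came first and ND6 last in all 6 birds, and ATP6 was the fifth and cytb the sixth in all 6. Ranks 2 to 4 were always shared by Cu, COX3 and ATP8, which exchanged places, and their values did not separate beyond the spread between birds. The complex I mRNAs held ranks 7 to 13 in every bird.

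The groups were also compared within birds of one kind, a split made after the data were seen. Where all resistant birds lay below all susceptible birds, as for 3.98% of all genes tested, both kinds separate as well. The split can therefore only add to the count of genes apart. Among the 4 birds with W fragments, resistant 1 and 2 lay below susceptible 1 and 2 for 12 of 13 mitochondrial genes, the exception being ND6. In VTG2 these 4 birds also differed by group, with resistant 1 and 2 the higher, and the part of this was not tested. Between the birds without W fragments, resistant 3 lay below susceptible 3 for 13 of 13. Of all genes tested, 15.9% had the first arrangement, 42.3% the second and 7.47% both, and 12 mitochondrial genes had both. With W fragments the mean of resistant over susceptible birds ran from 0.27-fold for ND2 to 0.65-fold for COX1, with a median of 0.39. Without them it ran from 0.31-fold for ND3 to 0.74-fold for COX1, with a median of 0.60. The 13 mRNAs are not independent of each other, so these counts are not counts of replicates. Of the 55 tested nuclear members, 12 were lower in resistant birds among those with W fragments, 22 between those without and 6 in both. For all genes tested these shares were 15.9%, 42.3% and 7.47%. The opposite arrangement, resistant birds higher among both kinds of bird, held for 0 mitochondrial and 2 nuclear members, against 7.98% of all genes tested.

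Mitochondrial values also lay higher in birds without W fragments. In a fit with group and W fragments as terms, chosen after the data were seen, the mitochondrial genes had a median log2 difference of 1.15, birds without minus birds with W fragments. All 13 were higher at an unadjusted p under 0.05, where 5.8% of all genes tested were, and 0 passed the adjusted threshold, which 0.343% of all genes passed. For 5 of 13 mitochondrial genes (ND1, ND4L, ND6, COX1 and ATP6) both birds without W fragments lay above the other 4, as for 13.3% of all genes tested. Of the nuclear members, 1 was higher and 7 were lower in birds without W fragments at an unadjusted p under 0.05, where 4.78% of all genes tested were lower. Of these 7, 4 were among the 14 tested nuclear members listed at 0 in a bird. Of the mitochondrial genes, ND3 came nearest to the adjusted threshold, with a log2 difference of 1.97 (SE 0.35) and a limma adjusted p of 0.0954. Among the mitochondrial genes ND6 had the largest difference, 2.92 (SE 0.63, limma adjusted p = 0.173). With 1 such bird per group, what else sets resistant 3 and susceptible 3 apart was not tested.

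With the W term, the log2 fold changes between resistant and susceptible birds were the same, because each group holds the same number of birds of each kind, but their errors were smaller. The median SE over the 13 mitochondrial genes was 0.29, against 0.53 with the groups alone, while over all genes tested it was 0.74 against 0.80. Lower values in resistant birds then had an unadjusted limma p under 0.05 for 11 of 13 mitochondrial genes, where 2.11% of all genes tested did. COX1 and ND6 were the other two. Of the nuclear members, 2 were lower and 2 higher at that level, where 3.09% of all genes tested were higher. ND3 had the smallest p of the set, 0.00075 unadjusted, but its adjusted p from limma was 0.774. The term left 0% of all genes past the adjusted threshold, with a lowest adjusted p of 0.160.

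**Figure D2:**
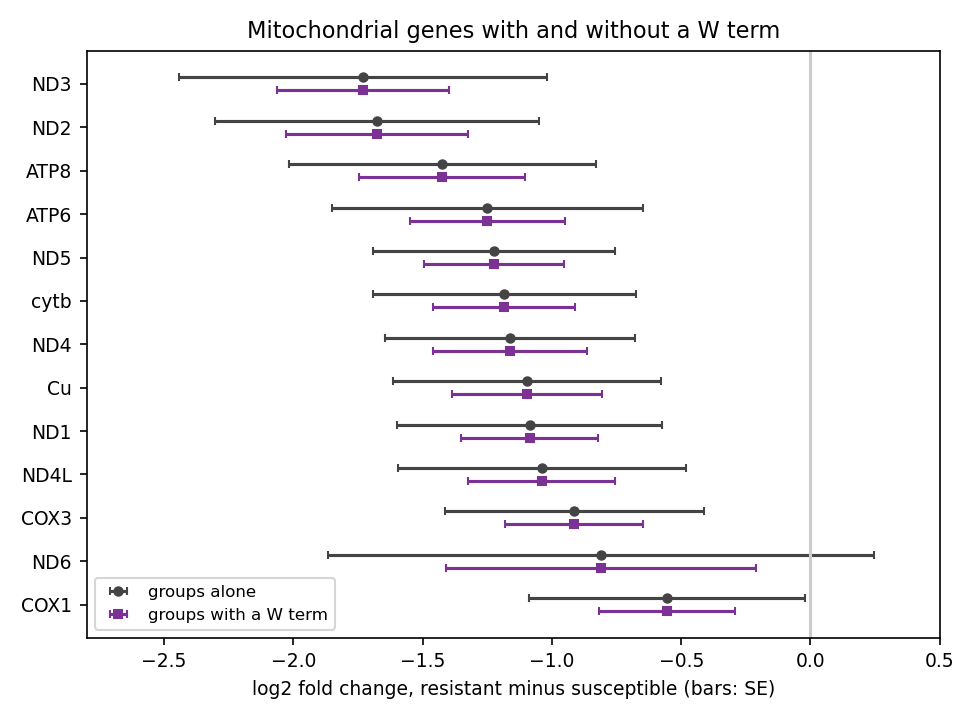
Log2 fold change of each mitochondrially encoded gene, resistant minus susceptible on log2(FPKM + 1), with its SE as the bar, from the groups alone (circles) and with a term for W fragments (squares). The points coincide and the bars shorten with the term, from a median SE of 0.53 to one of 0.29.

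Depth and the number of genes seen also differed between birds, and went with the mitochondrial levels only in part. Resistant 1 and 2, the birds with the lowest mitochondrial levels, had the most fragments (6622998 and 5809059) and the most genes above 0 (9424 and 8977), while resistant 3 had the fewest fragments and susceptible 2 the fewest genes. Susceptible 3, with the highest mitochondrial levels, had 4449343 fragments and 7611 genes, and susceptible 1 had 5539769 and 7858. The part of depth and genes seen in the result was not tested.

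Setting mitochondrial against nuclear subunits within a bird removes the library's scale. The summed FPKM of the 13 mitochondrial genes was 5.21-, 6.66- and 12.9-fold that of the nuclear subunits in resistant 1 to 3, against 12.2-, 11.1- and 26.7-fold in susceptible 1 to 3. Resistant 3 lay between susceptible 1 and susceptible 3, so the groups overlapped. On the log2 scale the ratio averaged 2.93 ± 0.67 in resistant livers and 3.94 ± 0.70 in susceptible livers (SD over 3 birds per group), a difference of -1.004. It was -0.98 among the birds with W fragments and -1.05 between those without, and -0.60 when susceptible 3 was left out. The mitochondrial sum itself was 18433 to 46099.6 FPKM in resistant and 43889 to 76111 in susceptible birds. That of the nuclear subunits was 2768 to 4141 in resistant and 2849.8 to 3969 in susceptible birds. The nuclear sums thus covered a narrower range than the mitochondrial ones.

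The ratio also had a lower mean in resistant birds within each of the 4 complexes. In complex I the mitochondrial sum was 2.13-, 2.51- and 6.41-fold the nuclear sum in resistant birds and 6.03-, 5.38- and 19.9-fold in susceptible birds, a mean log2 difference of -1.41. The nuclear sum of susceptible 3 was 822 FPKM, against 1046 to 1404 in the other birds, with NDUFB5 among its subunits listed at 0. With only nuclear subunits above 0 in all 6 birds, the difference over all complexes was -0.96, and that of complex I was not computed. Complex V had 5.86-, 6.47- and 16.4-fold in resistant birds and 17.2-, 15.1- and 28-fold in susceptible birds, a difference of -1.18. For complex III the values were 1.41-, 2.22- and 4.07-fold in resistant birds and 4.27-, 2.59- and 9.68-fold in susceptible birds, a difference of -1.03. Complex IV had a difference of -0.71, with 7.97-, 11.6- and 19.1-fold in resistant birds and 15.3-, 16- and 31.6-fold in susceptible birds. In every complex resistant 1 and 2 were the lowest birds and susceptible 3 the highest. Resistant 3 lay above at least 1 susceptible bird in each complex. Among the birds with W fragments the differences were -1.30 for complex I, -0.91 for III, -0.70 for IV and -1.39 for V. Without susceptible 3 they were -0.81 for complex I, -0.51 for III, -0.37 for IV and -0.92 for V. Without resistant 1 they were -0.66 for III and -0.40 for IV.

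**Figure D3:**
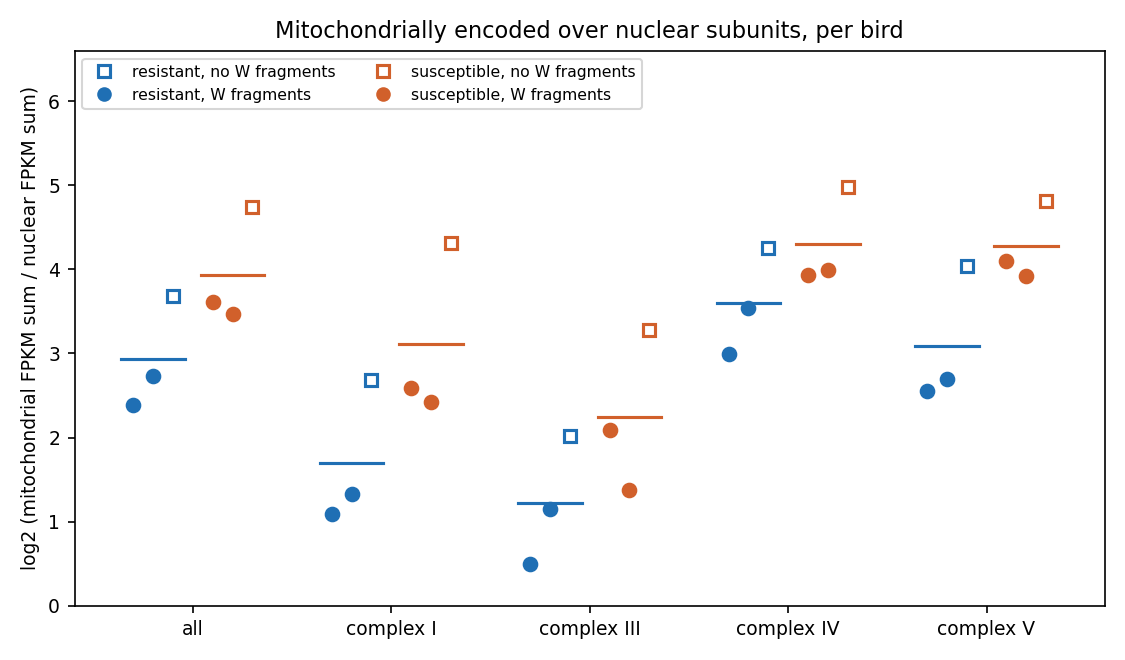
Log2 ratio of summed FPKM of mitochondrially encoded over nuclear subunits in each bird, over all genes and within complexes I, III, IV and V, with horizontal lines at the mean of each group. Open squares are birds without W fragments. Susceptible 3 is the highest point in each column, and resistant 1 and 2 are the lowest pair.

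Pairs of single partners within a complex differed in how the birds were ordered. The FPKM of cytb over that of UQCRC1, a nuclear core protein of complex III, was 16, 15.1 and 19.8 in resistant birds and 42.8, 31.1 and 81.4 in susceptible birds, with no overlap. For ND1 over NDUFS1, the largest nuclear core subunit of complex I, it was 12.7, 10.4 and 27.3 in resistant birds and 28, 20.1 and 53.0 in susceptible birds. COX1 over COX4I1, the nuclear subunit that regulates complex IV, gave 21.0, 33.7 and 68.8 in resistant birds and 51.2, 40.4 and 61.9 in susceptible birds, where resistant 3 was the highest. These pairs were chosen after their values were seen.

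Nuclear subunits of complex I numbered 27 tested, of which 10 had a log2 fold change below 0 and 17 one above it (median 0.25). The median was 0.07 with 0s as missing, 0.06 without susceptible 3 and -0.04 in the 4 birds with W fragments. Several of these genes were listed at 0 in some birds. NDUFB5, an accessory subunit, had 56.8, 68.8 and 228 FPKM in resistant birds and 133, 92.7 and 0 in susceptible birds. NDUFB5 differed by 2.07 on the log2 scale with all birds and by -0.20 when susceptible 3 was left out. NDUFB1 had 94.3, 58.2 and 0 in resistant birds and 168, 0 and 0 in susceptible birds, for 1.69 with 0s kept and -1.17 with 0s as missing. NDUFA1, needed in mammals for early assembly of the membrane arm, had 125, 74.0 and 0 in resistant birds and 45.7, 42.8 and 76.2 in susceptible birds. NDUFA1 differed by -1.35 with all birds and by 0.85 without resistant 3. In each of these 3 genes the direction turned when the 0s were left out. Of the 56 nuclear members, 15 were listed at 0 in at least 1 bird: 0, 5 and 7 genes in resistant birds 1 to 3, against 3, 4 and 10 in susceptible birds 1 to 3. None of the mitochondrial genes was.

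NDUFV2, a core subunit of the NADH-oxidising module, had 19.3, 4.88 and 20.6 FPKM in resistant birds and 5.41, 0 and 18.9 in susceptible birds, a log2 fold change of 1.45 (SE 1.09). NDUFS1, NDUFS7, NDUFA12, NDUFA10 and NDUFB4 were above 0 in all birds. NDUFS1, which carries iron-sulfur clusters, had 70.6, 65.5 and 68.8 FPKM in resistant birds and 59.4, 91.4 and 68.3 in susceptible birds, a difference of -0.07 on the log2 scale (SE 0.36, with a 95% interval of -0.88 to 0.74). NDUFS7 had 86.6, 86.2 and 88.0 in resistant birds and 105, 87.6 and 42.3 in susceptible birds. NDUFA12, the most abundant nuclear subunit of complex I, had 110.4, 107 and 159.5 in resistant birds and 246, 109 and 87.5 in susceptible birds. The groups overlapped in NDUFS1, NDUFS7 and NDUFA12, as they did in NDUFV2. NDUFA10 had 35.5, 33.2 and 36.3 FPKM in resistant birds and 42.4, 37.2 and 41.3 in susceptible birds, without overlap, and a log2 fold change of -0.20 (SE 0.38). NDUFB4 went the other way, at 13.5, 26.1 and 12.9 in resistant birds and 5.05, 4.61 and 5.94 in susceptible birds. Its log2 fold change was 1.51 (SE 0.60, limma adjusted p = 0.984), with an unadjusted p under 0.05. It was the one nuclear subunit with all resistant birds above all susceptible birds, an arrangement of 4.44% of all genes tested.

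Complex II had 2 tested subunits. SDHA, the flavoprotein that oxidises succinate, had 35, 29.8 and 42.7 FPKM in resistant birds and 51.2, 44.0 and 64.7 in susceptible birds. The groups did not overlap, and SDHA differed by -0.56 on the log2 scale (SE 0.39, with a 95% interval of -1.44 to 0.32). SDHD, a membrane anchor, had 53.5, 32.7 and 62.1 in resistant birds and 62.5, 56.7 and 29.0 in susceptible birds, with a log2 fold change of 0.03.

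The 5 nuclear subunits of complex III had a median log2 fold change of -0.02. UQCR10, a small subunit, varied most: it had 182, 85.4 and 51.4 FPKM in resistant birds and 213, 425 and 17.1 in susceptible birds. Both birds without W fragments lay below the other 4, as 6.6% of all genes tested did. UQCRC1 had 61.0, 52.9 and 113 in resistant birds and 57.9, 65.8 and 49.6 in susceptible birds. UQCRH, a hinge protein, had 184, 69.9 and 172 in resistant birds and 77.7, 116 and 125 in susceptible birds. UQCR11 averaged 144 ± 49.8 FPKM in resistant livers and 145 ± 25.8 in susceptible livers, and UQCRC2 averaged 66.6 ± 10.7 in resistant livers and 68.8 ± 19.9 in susceptible livers (SD over 3 birds per group). Resistant and susceptible birds overlapped in all 5 genes.

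In complex IV, COX6C, an accessory subunit and the most abundant nuclear member, had 372, 257 and 363 FPKM in resistant birds and 287, 378 and 163 in susceptible birds. COX4I1 had 304, 180.3 and 161 in resistant birds and 178, 247 and 241 in susceptible birds, a difference of -0.09 on the log2 scale (SE 0.38, with a 95% interval of -0.94 to 0.76), and 0.16 among the birds with W fragments. COX6A1 averaged 140.4 ± 23.1 FPKM in resistant livers and 139.9 ± 36.8 in susceptible livers (SD over 3 birds per group). The COX6A1 interval ran from -0.79 to 0.85 on the log2 scale. Both intervals take in the difference of COX1. NDUFA4 had 189, 136 and 116 in resistant birds and 238, 197 and 160.0 in susceptible birds, with resistant 1 above susceptible 3. The median of the 7 subunits was 0.07.

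Among the nuclear subunits of complex V, ATP5G3, which encodes the c-ring subunit that turns with proton flow, had the smallest p. It had 199, 152 and 67.5 FPKM in resistant birds and 286, 253 and 181 in susceptible birds, a log2 fold change of -0.89 (SE 0.46, limma adjusted p = 0.984). Resistant 1 lay above susceptible 3. With the W term the adjusted p from limma was 0.899, and without resistant 3 ATP5G3 differed by -0.44 on the log2 scale. ATP5C1, the central stalk, had 168, 105 and 249.9 in resistant birds and 149, 124 and 193 in susceptible birds. ATP5F1, of the outer stalk, had 76.7, 50.2 and 61.6 in resistant birds and 27.3, 77.3 and 48.6 in susceptible birds. The 6 tested subunits had a median log2 fold change of 0.03. ATP5J2, listed at 2.74 FPKM in resistant 1 and at 0 in the other birds, was not tested.

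**Figure D4:**
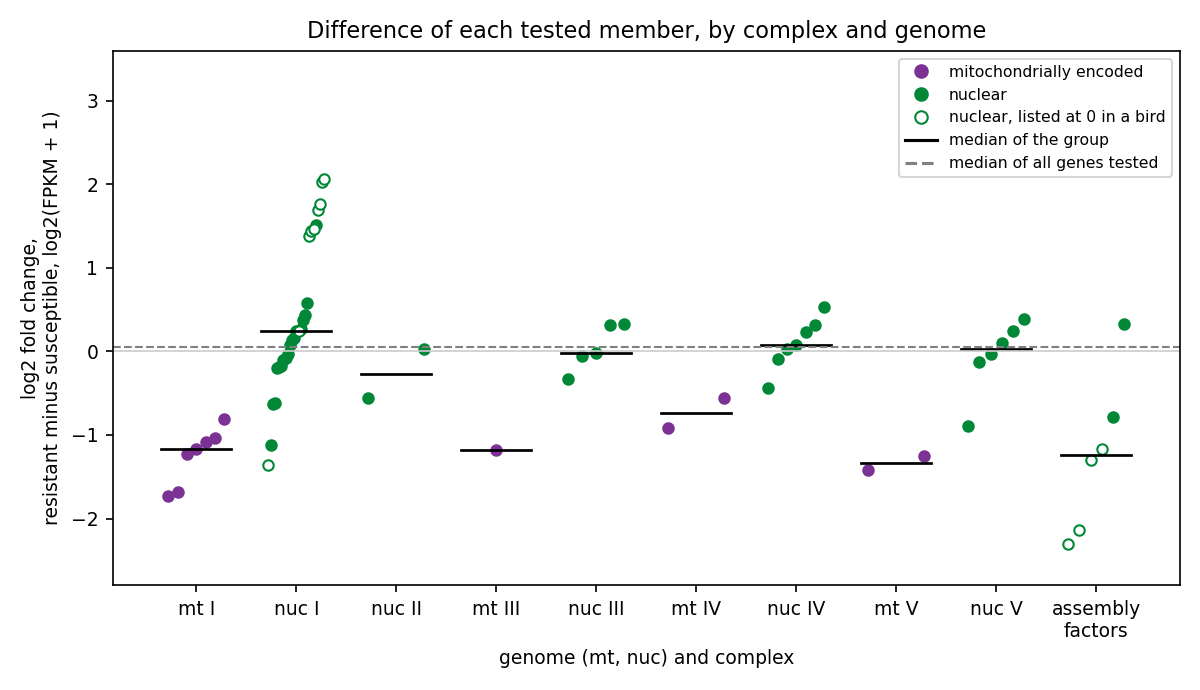
Log2 fold change, resistant minus susceptible on log2(FPKM + 1), of each tested subunit and assembly factor, by genome (mt, nuc) and complex, with black lines at the median of each set and a dashed line at the median of all genes tested. Mitochondrially encoded genes (purple) lie between -1.73 and -0.55. Nuclear subunits (green) scatter about 0, while 5 of the 6 nuclear assembly factors (also green) lie below it. Most nuclear genes listed at 0 in a bird (open) are at the extremes. Cu, COX7A2L and ATP5S are not drawn.

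Of the 6 assembly factors, 5 had a log2 fold change below 0, and the median was -1.24. NDUFAF4, an early assembly factor of complex I, had 3.72, 2.14 and 0 FPKM in resistant birds and 13.6, 16.3 and 6.06 in susceptible birds. The groups did not overlap, and the log2 fold change was -2.30 (SE 0.87, limma adjusted p = 0.984). NDUFAF6, which in mammals acts in the assembly of ND1, had 3.30, 0 and 0 in resistant birds and 12.1, 26.8 and 0 in susceptible birds. NDUFAF7, a methyltransferase that modifies a core subunit in mammals, had 9.22, 10.3 and 16.4 in resistant birds and 29.2, 16.4 and 18.8 in susceptible birds. All resistant birds lay below all susceptible birds, with resistant 3 and susceptible 2 nearly equal, and the log2 fold change was -0.79 (SE 0.52). NDUFAF1 had 44.2, 40.8 and 22.2 in resistant birds and 43.7, 17.5 and 25.5 in susceptible birds, the one factor with the higher mean in resistant birds. Most of these levels are low, and the median was -0.39 with 0s as missing.

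ATP5S, coupling factor B of the ATP synthase, had the smallest p of all members. Its FPKM was 3.75, 4.6 and 18.7 in resistant birds and 0, 0.33 and 0 in susceptible birds. All resistant birds lay above all susceptible birds. The log2 fold change was 2.87 (SE 0.87, limma adjusted p = 0.984).

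**Figure D5:**
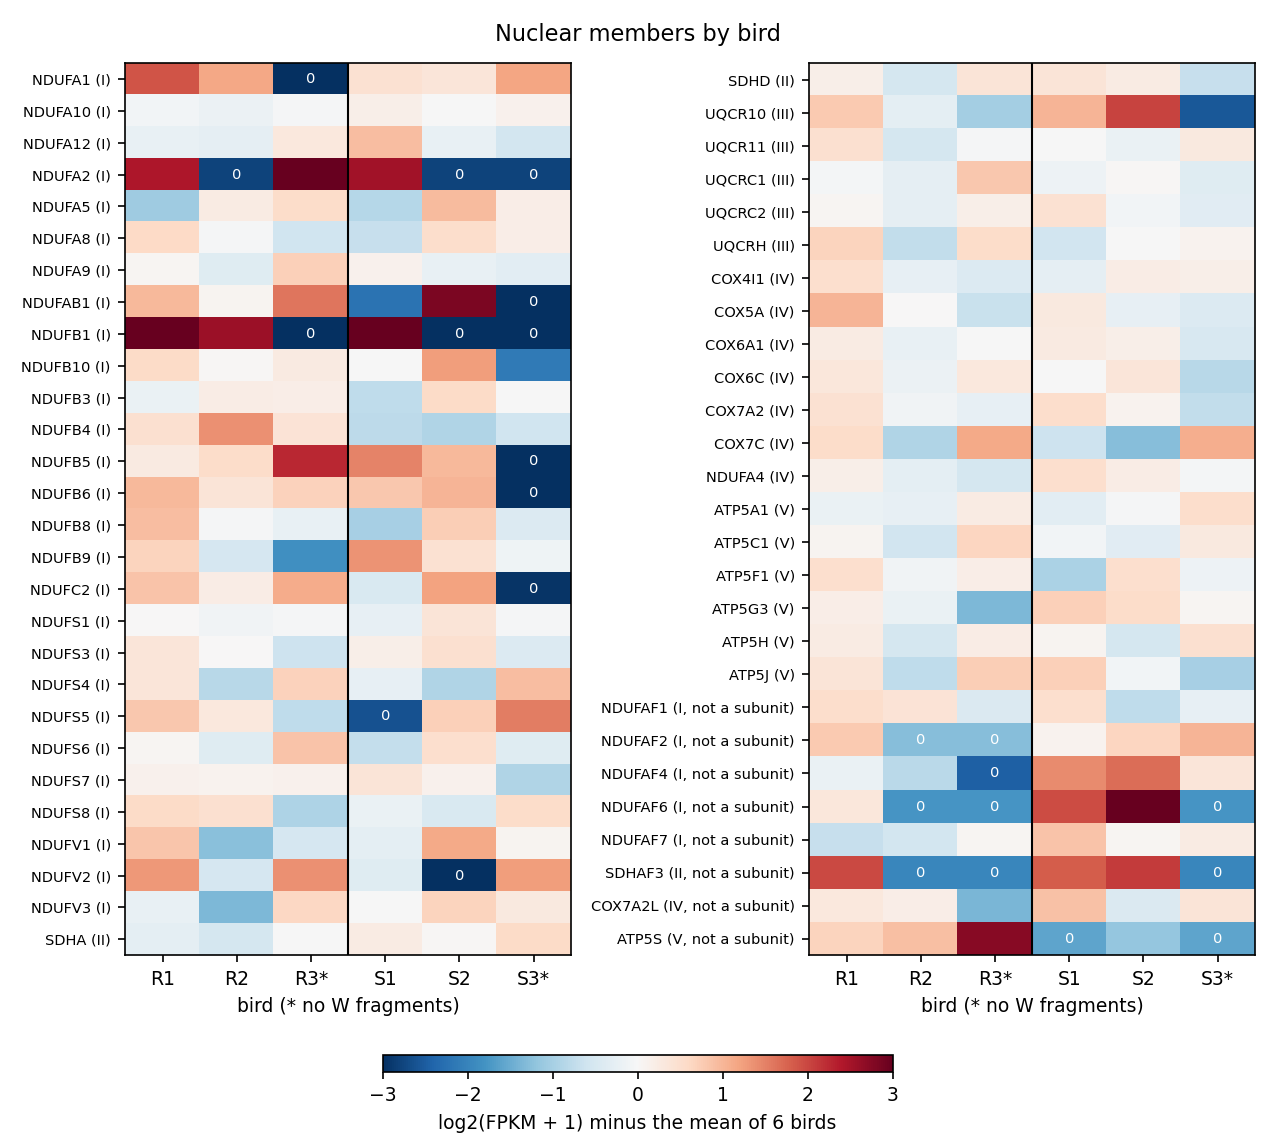
Log2(FPKM + 1) of the 55 tested nuclear members in each bird as the difference from the mean of the 6 birds, with the complex in brackets, resistant birds (R1 to R3) left of susceptible birds (S1 to S3). White 0s mark values listed at 0, which are most frequent in susceptible 3. That bird has 10 of the 56 nuclear members at 0, among them ATP5J2, which was not tested and is not drawn.

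Of the nuclear members, 4 lie on chromosome Z, of which male birds carry a pair and females a single copy. COX7C, a small subunit of complex IV, had 39.8, 13.9 and 59.5 FPKM in resistant birds and 17.1, 10.5 and 57.4 in susceptible birds. NDUFS4, of the electron input module of complex I, had 21.0, 8.65 and 26.6 in resistant birds and 13.3, 8.08 and 31.4 in susceptible birds. ATP5A1, the alpha subunit of ATP synthase, had 124, 119 and 168 in resistant birds and 113, 138 and 205 in susceptible birds. In these 3 genes both birds without W fragments lay above the other 4. This arrangement held for 30.7% of Z genes tested and 13.3% of all genes tested. NDUFAF2, the other one, was listed at 0 in resistant 2 and 3 and reached 3.87. The log2 difference of COX7C, birds without minus birds with W fragments, was 1.66 (SE 0.55, limma adjusted p = 0.358). Between resistant and susceptible birds COX7C differed by 0.53 (SE 0.72), and by 0.03 without susceptible 2.

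Genes that act on mitochondrial DNA and its RNA lay on both sides, with log2 fold changes below 0 for 11 of 23 tested genes and above 0 for 12, and a median of 0.08. At an unadjusted p under 0.05 limma counted 1 lower and 1 higher, and 0 at the adjusted threshold. TFAM, which packages mitochondrial DNA and starts its transcription, had 9.31, 5.36 and 0 FPKM in resistant birds and 11.0, 25.6 and 25.0 in susceptible birds. The groups did not overlap. TFAM differed by -2.33 on the log2 scale (SE 0.92), and by -1.32 when resistant 3 was left out. SSBP1, which coats single-stranded mitochondrial DNA, had 6.41, 1.66 and 20.03 in resistant birds, while the 3 susceptible birds were at 0. Both had an adjusted p of 0.984 from limma.

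The remaining lists had 0 genes past the adjusted threshold and 0 at an unadjusted p under 0.05. Of 21 further assembly factors tested, 10 had a log2 fold change below 0 and 11 one above it (median 0.08). NUBPL, which inserts iron-sulfur clusters into complex I, had 10.7, 4.70 and 6.22 FPKM in resistant birds and 25.8, 18.9 and 9.78 in susceptible birds, with resistant 1 above susceptible 3. FOXRED1, another complex I factor, had 6.37, 7.49 and 8.17 in resistant birds and 0, 0 and 9.04 in susceptible birds. Of 8 regulators of mitochondrial biogenesis, 4 lay below 0 and 4 above it, with a median of 0.02. GABPB1, part of a factor that binds promoters of respiratory chain genes, had 16.6, 13.5 and 11.5 in resistant birds and 22.0, 17.4 and 24.0 in susceptible birds, without overlap. PPARGC1A, the coactivator that drives mitochondrial biogenesis, had 1.45, 1.85 and 6.03 in resistant birds and 0, 2.05 and 6.61 in susceptible birds.

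Of 11 tested TCA cycle genes, 6 lay below 0 on the log2 scale and 5 above it (median -0.08). OGDH, of the 2-oxoglutarate dehydrogenase complex, had 11.1, 13.4 and 12.4 FPKM in resistant birds and 24.7, 28.4 and 21.6 in susceptible birds. The groups were well apart, with a log2 fold change of -0.96 (SE 0.47, limma adjusted p = 0.984). MDH2, mitochondrial malate dehydrogenase, had 72.1, 57.8 and 24.5 in resistant birds and 96.0, 96.8 and 68.9 in susceptible birds, with resistant 1 above susceptible 3. MDH2 differed by -0.87 on the log2 scale, and by -0.41 when resistant 3 was left out. Of 6 genes of uncoupling and alternative electron entry, 3 lay below 0 and 3 above it (median 0.18). GPD2, the glycerol phosphate shuttle enzyme, had 0, 4.69 and 6.95 in resistant birds, while all susceptible birds were at 0.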

How the data were processed

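Liver total RNA of 3 resistant and 3 susceptible birds was measured, with groups and numbers from the sample titles. Cutadapt 1.9.3, HISAT2 2.0.4, Cufflinks, Cuffdiff and the galGal4 build are listed, without roles, in the submitters' processing notes. The authors deposited FPKM values and a normalized signal, named counts per the file headers and read here as fragments over a size factor per bird. There were 0 columns of other samples. Starts were raised by 1.

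The deposited FPKM was put on the scale log2(FPKM + 1) and fitted in limma 3.58.1 under R 4.3.3, with eBayes and a trend, over 9626 genes with a mean of at least 0.5 FPKM, with 2-sided p-values adjusted over all of them at 0.05. The scale understates differences of low genes. P-values measure the spread between birds. SDs are of FPKM. Named were all mitochondrial genes and, per complex, nuclear genes by level, p or groups apart. Not every such gene is described. Members and lists were chosen with earlier results of these data known. The test was also run on simulated data with known changes, and the share recovered is not given here. The chi-square per degree of freedom between libraries of a group was 144 or more, so none was a repeat of another in its group. Pairs across the groups were not compared. Fragments per bird are estimates, the summed signal over a fitted step of which nearly all low values were whole multiples. A few values per bird lay far below that step. The estimates cover the genes of the table only. The planned count-model fits were not run. Figures were drawn with matplotlib 3.10.9.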

Additional observations from a re-analysis of the deposited data

How the results depend on the processing

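At an adjusted p under 0.05, limma called 0 of all genes tested and 0 members under all 17 other settings tried. At an unadjusted p under 0.05 limma's count of mitochondrial genes lower in resistant birds, 6, was 3 to 11 under other settings and 0 to 10 when 1 bird was left out. Their median log2 fold change of -1.16 was -0.95 under quantile normalization, -1.07 with median ratios, -1.13 with equal totals outside the mitochondrial genome and -1.63 to -0.87 without 1 bird. The difference in the log2 ratio of mitochondrial over nuclear subunits, -1.004, was -0.83 with scaled counts and -1.38 to -0.60 without 1 bird. The mitochondrial share of FPKM was 4.97, 5.24 and 9.67% in resistant and 9.84, 9.93 and 16.9% in susceptible birds, without overlap. The resistant minus susceptible difference in this share was -5.60 percentage points. With scaled counts, which are not per length, it was -2.05 points, and the groups overlapped. The mean share of resistant over susceptible birds was 0.542-fold with FPKM and 0.554-fold with scaled counts. The median of assembly factors was -2.72 with a pseudocount of 0.1 and -2.36 with scaled counts. Without 1 bird it ran from -2.23 to -0.77, that of nuclear complex III from -0.052 to 0.40 and that of nuclear complex V from -0.16 to 0.42, and the causes were not tested. The median of all genes was -0.19 with 0s as missing. Directions of single genes also turned. ND6 ran from -1.89 to 0.13 without 1 bird, NDUFA1 from -2.64 to 0.85, NDUFB5 from -0.20 to 3.33, COX4I1 from -0.37 to 0.092 and ATP5A1 from -0.31 to 0.11. With 0s as missing NDUFA1 was 0.85, NDUFB1 -1.17 and NDUFB5 -0.20. In the 4 birds with W fragments, an alternative added after the data were seen like the W term, NDUFA1 was 1.10, NDUFB5 -0.82, NDUFA2 -0.040 and COX4I1 0.16. COX4I1 was 0.0055 with median ratios and 0.051 under quantile normalization. With the bird number as a replicate block, the mitochondrial count was 11, the median -1.16 and the calls 0. Number 3 is the bird without W fragments in each group, so this block includes the W term and is not a separate check. The numbers do not pair the birds: deviations of same-numbered birds correlated at 0.01, 0.04 and 0.17, and resistant 1 and 2 correlated best with another number. The planned count-model alternatives were not run. With 3 birds per group, depth and listed 0s limit what single nuclear genes can show.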
